A study of Saccharomyces cerevisiae x Saccharomyces kudriavzevii with 6 samples.

Results

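Gene expression of the hybrid wine yeast VIN7 at low temperature (12°C) was compared with its expression at 28°C, gene by gene, on the 3 arrays of that strain. The members are the open reading frames (ORFs) with a log2 ratio on at least 2 of the 3 arrays, which were 5100 of the 5616 ORFs in the table. VIN7 is a commercial *S. cerevisiae* x *S. kudriavzevii* hybrid with an allotriploid genome that lacks one *S. kudriavzevii* chromosome and parts of others, and it was taken as a single strain. Tempranillo must was fermented at 12°C or at 28°C, and cells were pelleted early in the exponential phase. Each array carried the 12°C and the 28°C RNA of VIN7 in different dyes, so a positive log2 ratio means a higher level at 12°C and a value of 1 is a 2-fold difference. Arrays A and B had the 12°C sample in Cy5 and array C had it in Cy3. The 3 arrays of the hybrid W27, grown at the same temperatures, served only for the comparison of strains. The labels call the arrays of a strain biological replicates, whereas by the methods a strain was fermented 2 times independently and sampled 3 times in each run, so arrays may share a fermentation and p-values measure only the spread between these samples. The spots hold amplified ORFs of the *S. cerevisiae* strain S288c. A spot therefore reads the alleles of both parents together, and no spot could be used to check which hybrid was on an array.

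A fermenting yeast cell turns sugar into pyruvate by glycolysis, and pyruvate decarboxylase and alcohol dehydrogenase turn the pyruvate into ethanol. Growth sets the demand for ribosomes, whose protein genes are among the most strongly transcribed in yeast and are known to be controlled together with the factors that assemble ribosomes. Cold slows enzymes, stiffens membranes and hinders translation, and cold-exposed yeast is known to store trehalose and glycogen and to make cold-induced wall and stress proteins.

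The 3 arrays differed in coverage and in spread. A value was present for 4686 ORFs on VIN7 A, 3800 on VIN7 B and 5565 on VIN7 C, and 3359 ORFs had all 3. The median log2 ratio was near 0 on each array (-0.01 on A, 0.06 on B and -0.01 on C), whereas the SD over ORFs was 0.79 on A, 1.71 on B and 0.39 on C. A 2-fold difference in either direction was thus reached by 17.6% of the values on A, 48.9% on B and 1.40% on C. Values were not missing evenly on B. The ORFs without a value on B had a median of -0.41 on A, against 0.13 for those with one, and 21.5% of them, against 4.22%, were at least 2-fold lower on A. An ORF that was low at 12°C was therefore measured on all 3 arrays less often than one that was high, and how this bears on the counts below was not tested.

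The direction of the dye-swapped VIN7 C rests on the deposited sign. The main counts, the list medians that are given a direction and most leading genes are given with that sign and with it turned. The counts by chromosome are given as deposited only. Among the 274 ORFs that were at least 2-fold from 0 on the same side on A and on B, C lay on that side for 196 (71.5%) as deposited. These were 65 of 72 ORFs that were low on A and B, and 131 of 202 that were high. At a size of 1.5 or more on A and B, C lay on their side for 81 of 129 ORFs (62.8%). These were 16 of 17 low ORFs and 65 of 112 high ones, and the high ones had a median of 0.07 on C. Of the ORFs at least 2-fold from 0 on B, taken alone, C lay on the side of B for 859 of 1601 (53.7%). The medians of the 16 chromosomes went with the turned sign. They correlated between A and B (r = 0.76 over the 16 medians), but A and C ran against each other (r = -0.76). Chromosomes II and III had medians of -0.38 and -0.29 on A, -0.73 and -0.28 on B, but 0.18 and 0.34 on C. After each array was centred on the median of each chromosome, a step chosen after the data were seen, C lay on the side of A and B for 187 of 255 ORFs (73.3%). Single ORFs that were low on A and B thus went with the deposited sign of C. Those that were high did so less clearly, and whole chromosomes went with the turned sign. These correlations are across ORFs or chromosomes of the same arrays, which are not independent replicates.

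**Figure D1:**
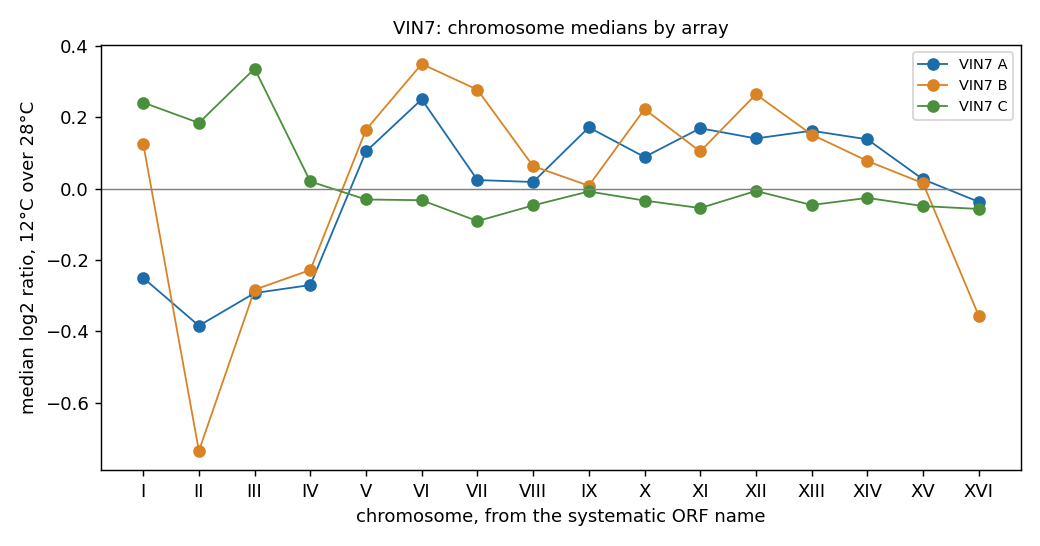
Median log2 ratio (12°C over 28°C) of the ORFs of each chromosome, chromosomes I to XVI from left to right, on VIN7 A, B and C as deposited. On chromosomes II and III, A and B lie below 0 and C above it, and the 16 medians of A and C have r = -0.76.

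No ORF passed a false discovery rate of 5% in limma's test of the mean log2 ratio against 0 (0 of 5100, or 0% in each direction, with a smallest adjusted p of 0.612). At an unadjusted p under 0.05 there were 165 ORFs higher at 12°C (3.24% of those tested) and 114 lower (2.24%). With the sign of C turned there were also 0 at the false discovery rate of 5% (smallest adjusted p = 0.936), and 88 higher (1.73%) and 16 lower (0.314%) at the unadjusted threshold. Only 18 ORFs were in both unadjusted sets, which is 6.45% of the set with C as deposited and 17.3% of the set with C turned. Significance Analysis of Microarrays (SAM), run for a single class with the 8 sign flips of 3 arrays, called 11 ORFs higher and 0 lower among the 3359 with complete values, and 0 in both directions with C turned, a run added after the data were seen. The 11 were *PDC1*, *PDC5*, *IDP2*, *GSY2*, *MMR1*, *UTP13*, *MRPL8*, *EIS1*, *ELA1*, *MSO1* and *ANB1*, and each is described below.

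Size and sign together gave a second view. Of the 3359 ORFs with 3 values, 136 had 3 values above 0 and a 2-fold or larger median (4.05%), and 66 had 3 values below 0 and a median as far from it (1.96%). The members nearest to the threshold had medians of 1.00 and -1.01, and the nearest ones outside it 0.995 and -0.994. Turning C gave 71 (2.11%) and 8 (0.238%). The directions differed in function. Of the 66 ORFs that were lower, 23 (34.8%) belonged to 4 lists of ribosomal proteins and ribosome assembly factors, which hold 5.03% of the ORFs with 3 values, and of the 136 that were higher only 5 (3.68%) belonged to them. With C turned, 1 of the 8 lower and 1 of the 71 higher ORFs were on these lists. The lists were written from general knowledge of the yeast gene catalogue with earlier results of these arrays known, and this share was not tested.

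The pyruvate decarboxylases led the ORFs that were higher at 12°C. *PDC1* (YLR044C), the main pyruvate decarboxylase of fermenting yeast, had log2 ratios of 2.27 on A, 2.49 on B and 1.75 on C. *PDC5* (YLR134W), the second isozyme, had 1.55, 1.28 and 1.43, and *PDC6* (YGR087C), the minor isozyme, 1.92, 1.57 and 0.95. All 9 values were above 0 and the arrays of each gene lay close together. The SD was 0.38 for *PDC1*, 0.14 for *PDC5* and 0.49 for *PDC6* (n = 3 each). The adjusted p was 0.612 for each by limma, and between 0.137 with array weights and 0.986 with a dye term over the alternatives for *PDC1*. With a dye term in the model, which takes out an effect common to one dye, the estimates were 2.07 for *PDC1*, 1.43 for *PDC5* and 1.35 for *PDC6*. Turning C gave means of 1.00, 0.47 and 0.85. The 3 isozymes are alike in sequence and may cross-hybridise on these ORF spots, so they are not 3 separate measurements. The list of pyruvate decarboxylases and alcohol dehydrogenases had a median of -0.07 over 8 ORFs, of which 4 had a mean above 0. The means ran from -2.35 to 2.17. On every array with a value 4 ORFs (50%) were above 0 and 3 (37.5%), all dehydrogenases, below it, against 21.9% and 25.2% of all ORFs tested. None of the list was lower at an unadjusted p under 0.05. The 3 *PDC* genes were its members at an unadjusted p under 0.05.

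Genes of carbon storage and NADPH supply stood beside them. *GSY2* (YLR258W), the major glycogen synthase, had 1.12 on A, 1.61 on B and 1.16 on C (mean 1.30 ± 0.27, SD, n = 3). *IDP2* (YLR174W), the cytosolic isocitrate dehydrogenase that makes NADPH, had 1.23, 1.75 and 1.01 (1.33 ± 0.38). Both genes were above 0 on all arrays with little spread, and turning C left means of 0.53 for *GSY2* and 0.66 for *IDP2*. The list of trehalose and glycogen genes had a median of 0.41 over 16 ORFs (0.50 on A, 0.88 on B and -0.02 on C), against -0.02 over all 5100 ORFs. Of these 16, 12 had a mean above 0 and 1, *GSY2*, passed the unadjusted threshold. Other members had means as large with more spread, among them YML100W with 2.31 on A and 0.63 on C and YPR184W with 1.97 on B and 0.44 on C. The TCA, glyoxylate and gluconeogenic list, which holds *IDP2*, had a median of -0.22 over 23 ORFs with 1 past the unadjusted threshold. Glycolysis had a median of 0.21 over 17 ORFs (0.40, 0.13 and 0.09 on A, B and C), with 0 past the unadjusted threshold in either direction. Its members *TDH3*, *ENO2* and *TDH2*, which encode glyceraldehyde-3-phosphate dehydrogenase (*TDH2*, *TDH3*) and enolase (*ENO2*), had means of 0.46, 0.45 and 0.63 and were above 0 on all 3 arrays. The glycolytic ORF with the smallest p-value, YKL060C, lay on the other side with -0.68, -0.76 and -0.40 on A, B and C. Of the 17 ORFs 5 were above 0 on all arrays with a value and 2 below. Turning C brought the glycolysis median to 0.06.

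Several genes of organelle inheritance, signalling and trafficking completed the ORFs with the smallest p-values. *MMR1* (YLR190W), which carries mitochondria into the bud, had 1.34, 2.21 and 1.34 on A, B and C. *IRA2* (YOL081W), which switches off Ras, had 1.74, 2.33 and 0.71. *EIS1* (YMR031C), a protein of the eisosomes under the plasma membrane, had 0.94, 1.22 and 0.95, and *MSO1* (YNR049C), which acts with the fusion machinery of secretory vesicles, 0.94, 1.29 and 0.89. In each of these genes B was the highest array and none of the values lay below 0. Turning C gave means of 0.74 for *MMR1*, 1.12 for *IRA2*, 0.40 for *EIS1* and 0.45 for *MSO1*. *ENT3* (YJR125C), an adaptor of clathrin-coated transport, had 0.80, 1.43 and 0.71. The TRAPP and exocytosis list that holds *MSO1* had a median of -0.13 over 26 ORFs, with 1 higher and 0 lower at the unadjusted threshold.

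A second set concerned regulators and RNA. *UTP13* (YLR222C), a subunit of the small-subunit processome, had 1.32, 1.36 and 0.87 on A, B and C, and so ran against most of its list. *MRPL8* (YJL063C), a protein of the large mitochondrial ribosomal subunit, had 1.04, 0.90 and 1.07 and the smallest SD of the SAM-called genes (0.09, n = 3). *VAS1* (YGR094W), the valyl-tRNA synthetase, had 1.64, 1.34 and 0.67. *ELA1* (YNL230C), the yeast elongin A, had 1.11, 1.13 and 0.82, and *PDR8* (YLR266C), a zinc cluster factor of drug resistance, 1.35, 0.90 and 0.93. *ANB1* (YJR047C), the form of translation factor eIF5A made when oxygen is low, had 0.92, 1.08 and 0.83. The values of these 6 genes were of one sign and overlapped between arrays. Their means after turning C lay between 0.29 (*MRPL8*) and 0.77 (*VAS1*). Of the ORFs in the ranking that no table used here names, YLR206W had 1.01, 2.05 and 1.14 (mean 1.40), and YGR095C 1.84, 1.41 and 0.77.

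**Figure D2:**
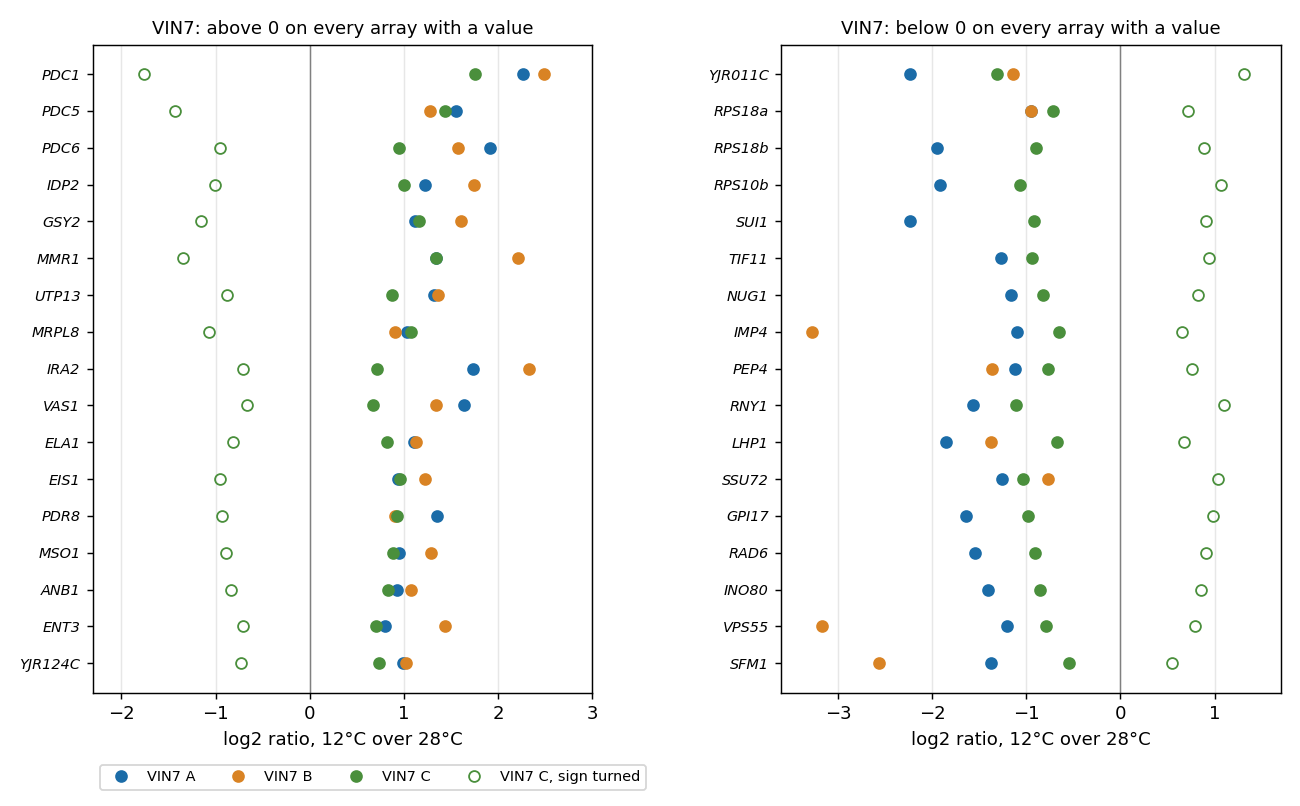
Log2 ratio (12°C over 28°C) of 17 genes above 0 on every VIN7 array with a value (left) and 17 genes below 0 (right), with 1 point per array and the sign-turned value of C as an open circle. *PDC1* has 2.27 on A, 2.49 on B and 1.75 on C, and *SUI1* and *RPS18b* are among the genes on the right with no value on B.

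Among the ORFs that were lower at 12°C, *YJR011C*, of unknown function, had the smallest p-value with -2.24 on A, -1.14 on B and -1.31 on C (mean -1.56 ± 0.59, SD, n = 3). *PEP4* (YPL154C), the vacuolar proteinase A that activates other vacuolar hydrolases, had -1.12, -1.36 and -0.77. *RNY1* (YPL123C), the vacuolar ribonuclease, had -1.57 on A and -1.11 on C, with no value on B. Both genes were below 0 wherever they were measured, but the list of 12 vacuolar hydrolases had a median of -0.01 with 2 lower and 0 higher at the unadjusted threshold, and 6 of the 12 had a mean below 0. *SSU72* (YNL222W), a phosphatase of RNA polymerase II that takes part in mRNA 3′ end formation, had -1.26, -0.76 and -1.04. *LHP1* (YDL051W), the La protein that binds new RNA polymerase III transcripts, had -1.86, -1.38 and -0.67. The 3′ end list had a median of -0.10 over 18 ORFs, with 1 higher and 1 lower at the unadjusted threshold, and the RNA polymerase I and III list -0.11 over 33 ORFs, with 0 higher and 1 lower. With C turned the means were -0.69 for *YJR011C*, -0.57 for *PEP4*, -0.33 for *SSU72* and -0.85 for *LHP1*. The unnamed YOR294W had -1.32, -2.12 and -0.95, and YHR138C -1.63, -1.50 and -0.71.

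Genes of the cytosolic ribosome were the largest group below 0. The small-subunit ribosomal proteins had a median of -0.61 over 52 ORFs, and 42 of these had a mean below 0 (51.5% of all ORFs tested did, and 48.5% had a mean above 0). By array the medians were -0.49 on A, -0.89 on B and -0.31 on C, with 41 of 51, 33 of 42 and 45 of 52 ORFs below 0. On every array with a value, 35 of the 52 (67.3%) were below 0, against 25.2% of all ORFs tested. At the unadjusted threshold 9 were lower (17.3%) and 1 higher (1.92%), against 2.24% and 3.24% of all ORFs tested. The large-subunit ribosomal proteins had a median of -0.52 over 76 ORFs (-0.39, -0.70 and -0.14 by array). Without B the medians were -0.37 for the small and -0.28 for the large subunit. Of the large-subunit ORFs, 37 (48.7%) were below 0 on every array with a value. At the unadjusted threshold 9 of them were lower (11.8%) and 2 higher (2.63%). Since the C medians of both lists had the sign of A and B, turning C brought the medians nearer to 0, at -0.32 for each list, and left 0 small-subunit and 0 large-subunit ORFs lower at the unadjusted threshold.

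Single ribosomal protein genes spread widely around these medians. *RPS18a* (YDR450W) had -0.95 on A, -0.95 on B and -0.72 on C, and its copy *RPS18b* (YML026C) -1.95 on A and -0.89 on C. These copies are nearly identical, so their spots share labelled cDNA. *RPS10b* (YMR230W), another small-subunit protein, had -1.92 on A and -1.07 on C. Of the ORFs lower on all 3 arrays, the small-subunit YHL015W had -1.95, -3.34 and -0.75, and the large-subunit YHR010W -1.06, -2.34 and -0.96 and YDR471W -1.39, -1.37 and -0.58. These ORFs had 3 values below 0, with B the lowest in YHL015W and YHR010W. Against the lists' direction, *RPS27b* (YHR021C) had 1.16, 2.29 and 0.53 on A, B and C. *RPL20a* (YMR242C) had 1.16, 0.54 and 0.50, and *RPL24b* (YGR148C) 0.54, 0.81 and 0.51. These genes of both subunits had 3 values above 0.

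The lists of ribosome assembly factors and of translation factors also had medians below 0 on each array. The small-subunit processome and snoRNP proteins, which cut and modify ribosomal RNA, had a median of -0.51 over 39 ORFs (-0.58, -1.25 and -0.21 by array). At the unadjusted threshold 5 were lower (12.8%) and 1 higher (2.56%), against 2.24% and 3.24% of all ORFs tested. The median was -0.81 without A, -0.33 without B and -0.99 without C. *IMP4* (YNL075W), a processome protein, had -1.10, -3.27 and -0.66 on A, B and C, so that its mean of -1.68 rests largely on B. The large-subunit assembly factors had a median of -0.30 over 56 ORFs (-0.39, -0.12 and -0.30 by array), and of -0.14 without A and -0.15 without C. Of these ORFs 6 were lower (10.7%) and 1 higher (1.79%) at the unadjusted threshold. *NUG1* (YER006W), a GTPase that takes part in the export of the large subunit from the nucleus, had -1.16 on A and -0.82 on C. The translation factors had a median of -0.26 over 37 ORFs, and of -0.09 without B, which is under the size needed for a direction. At the unadjusted threshold 3 of these ORFs were lower (8.11%) and 3 higher (8.11%). The initiation factors *SUI1* (YNL244C, eIF1), with -2.23 on A and -0.91 on C, and *TIF11* (YMR260C, eIF1A), with -1.27 and -0.94, were low. The list member YEL034W had 0.91, 2.00 and 0.71 on A, B and C. The elongation factor *EFT2* (YDR385W) had 0.53, 1.24 and 0.67 on A, B and C and *ANB1* was also above 0, so single members lay on both sides while the list's medians were below 0 on A (-0.14), B (-0.46) and C (-0.08). *SFM1* (YOR021C), which methylates a ribosomal protein, had -1.37, -2.56 and -0.55. Over the 4 ribosome lists together, 150 of 216 ORFs were below 0 on A (69.4%), 122 of 176 on B (69.3%) and 168 of 228 on C (73.7%), against 50.6%, 48.1% and 51.2% of all ORFs. With C turned, the share below 0 on that array would be the share above it. The medians of the processome, large-subunit assembly and translation factor lists were then -0.26, -0.17 and -0.21. That of the assembly factors was under the size needed for a direction. The turned C medians of all these lists lay above 0 while those of A and B lay below it, so none of the lists kept a direction. At the unadjusted threshold 1, 0 and 0 ORFs of these lists were then lower, and 0, 1 and 0 higher.

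**Figure D3:**
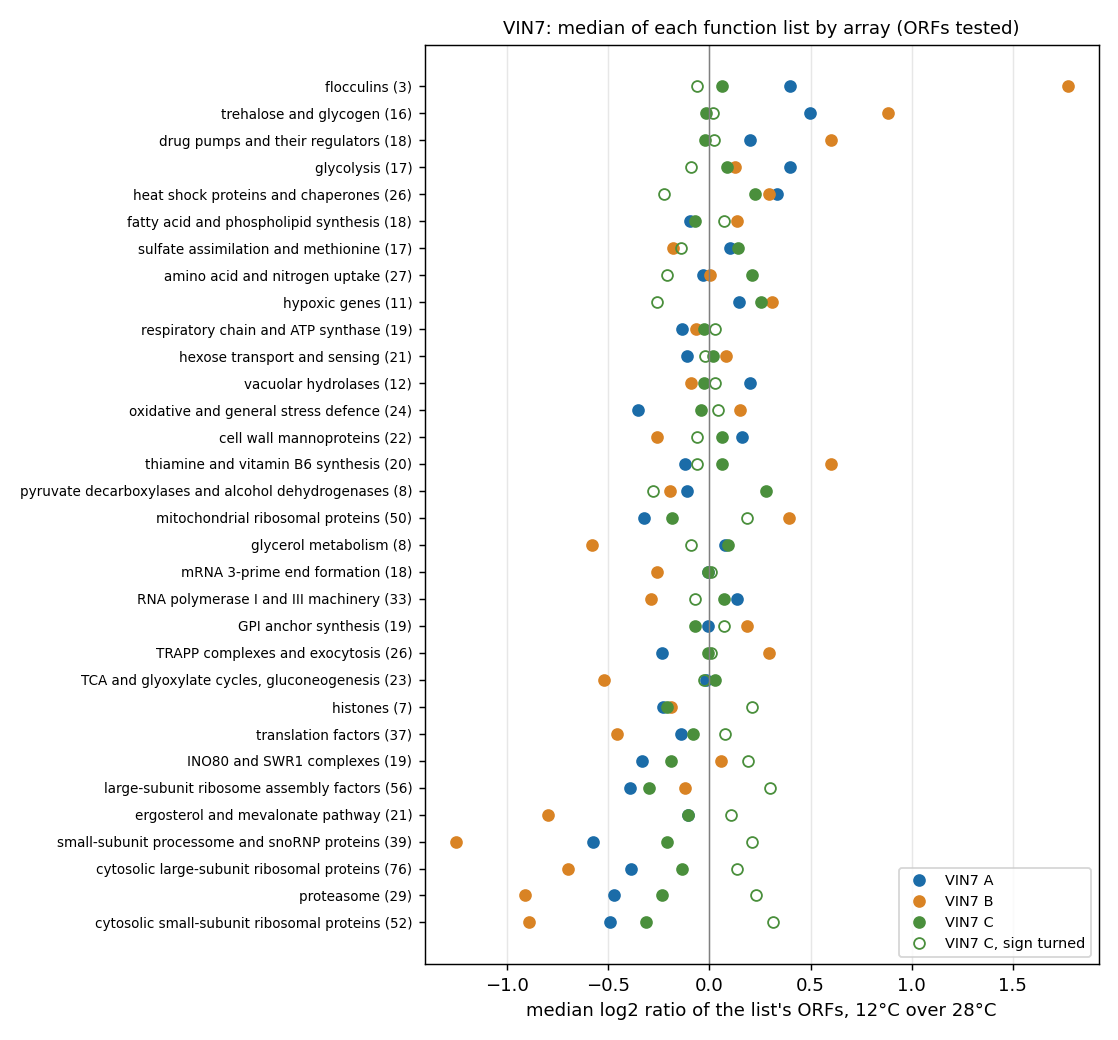
Median log2 ratio (12°C over 28°C) of the ORFs of each of 32 function lists on VIN7 A, B and C, with the sign-turned median of C as an open circle and the number of ORFs tested in brackets. The lists are ordered by the median of their ORF means, and the small-subunit ribosomal proteins at the bottom have -0.49 on A, -0.89 on B and -0.31 on C.

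Outside the ribosome, 3 lists had medians below 0 on A, B and C and a size of 0.2 or more. The proteasome, which degrades ubiquitin-tagged proteins, had a median of -0.60 over 29 ORFs (-0.47, -0.91 and -0.23 on A, B and C), and of -0.31 without B and -0.94 without C. Of its ORFs 26 had a mean below 0, but only 1 was lower at the unadjusted threshold and 0 were higher. The ergosterol and mevalonate pathway, which makes the main membrane sterol, had a median of -0.43 over 21 ORFs (-0.10, -0.80 and -0.11), with 1 lower and 0 higher. Its median rests mainly on B, and without B it was -0.08. The histones had a median of -0.24 over 7 ORFs (-0.23, -0.19 and -0.21), with 0 past the unadjusted threshold, and of -0.02 without A and -0.09 without C. With C turned the medians were -0.34, -0.26 and -0.11. By the same rule 2 lists had medians above 0, those of glycolysis and of the flocculins, wall proteins that bind cells together. The flocculin list had medians of 0.40, 1.77 and 0.06 on A, B and C, with 3 ORFs tested, 1 of them above 0 on every array and 0 past the threshold. Its median was 0.60, with 0.23 without B and 0.65 with C turned. None of the lists in this paragraph had medians of one sign on all 3 arrays once C was turned.

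The remaining lists gave no common sign or a median within 0.2 of 0. The heat shock proteins and chaperones had a median of 0.14 over 26 ORFs, with 2 higher and 0 lower at the unadjusted threshold. *SSA2* (YLL024C), a chaperone of the Hsp70 family, was one of these 2, with 0.97, 0.44 and 0.77 on A, B and C. The INO80 and SWR1 chromatin remodellers had a median of -0.30 over 19 ORFs (-0.34 on A, 0.06 on B and -0.19 on C), with 1 lower. The drug pumps and their regulators had 0.24 over 18 ORFs with 1 higher, but -0.02 on C. The mitochondrial ribosomal proteins had -0.08 over 50 ORFs with 1 higher and 2 lower. The oxidative and general stress list had -0.02 over 24 ORFs, the respiratory chain and ATP synthase 0.00 over 19 (0.003 before rounding, with 0 higher and 1 lower) and the hexose transporters and sensors -0.01 over 21, with 0 past the threshold in the first and the last. The cell wall mannoproteins had -0.05 over 22, thiamine and vitamin B6 synthesis -0.06 over 20 and glycerol metabolism -0.09 over 8, with 0 past the threshold in each. The GPI anchor genes had -0.13 over 19 with 1 lower, and amino acid and nitrogen uptake 0.09 over 27 with 1 lower. Fatty acid and phospholipid synthesis had 0.12 over 18 with 2 lower, sulfate assimilation and methionine 0.10 over 17 with 1 higher, and the hypoxic genes 0.08 over 11 with 1 higher.

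The ORFs that the authors' supplementary list gives for VIN7 were examined array by array. Of these, 18 are listed as up-regulated and 22 as down-regulated. The list was drawn from these arrays, so its direction is no independent evidence. The listed genes stood out most on C, the array with the smallest spread. All 18 up-regulated genes had at least 0.73 on C, a value that 130 of 5565 ORFs reached (2.34%), whereas the lowest listed value on A, 0.92, was reached by 9.71% of ORFs and that on B, 0.90, by 27.3%. All 22 down-regulated genes were at -0.72 or lower on C, as were 163 ORFs (2.93%), against 16.6% for the corresponding value on A and 30.6% on B. A value on C alone was present for *FLO1* (0.78), the flocculin gene, for *TRS120* (0.92), a subunit of a TRAPP complex, and for YOL075C (0.95) and YCRX18C (0.99). It was also the case for *HSP12* (-1.43), a small membrane-stabilising heat shock protein, and *GRX2* (-1.27), a glutaredoxin. These genes had no second array, so their means were not tested and would change sign with C turned.

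The other listed down-regulated genes came from diverse functions and had mostly A and C alone. *GPI17* (YDR434W), a subunit of the GPI transamidase, had -1.64 on A and -0.98 on C, and *GPI15* (YNL038W), of the first step of GPI anchor synthesis, -0.70 and -0.73. *RAD6* (YGL058W), a ubiquitin-conjugating enzyme, had -1.54 and -0.91, and *INO80* (YGL150C), the ATPase of its remodelling complex, -1.40 and -0.86. *LPP1* (YDR503C), a lipid phosphate phosphatase, had -0.92 and -1.03, and *RSM18* (YER050C), a mitochondrial ribosomal protein, -1.18 and -0.82. In *GPI15* and *LPP1* C was the lower array, and in the others of these genes A was. With C turned, the means of *GPI15* and *LPP1* were 0.02 and 0.05, near 0 and on the other side, since A and C were of like size. *YFT2* (YDR319C), a protein of lipid droplet formation, had 3 close values, at -0.80, -0.68 and -0.76. *YHL012W*, *COS3* (YML132W) and *YGR117C* had means of -1.17, -1.32 and -1.09. The listed *YJR124C*, up-regulated, had 0.99, 1.03 and 0.73.

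Genes named in the study's table, but not for VIN7, also had values of one sign on every array. *VPS55* (YJR044C), of transport to the vacuole, had -1.20, -3.17 and -0.79, and *ENV10* (YLR065C) -0.98, -2.44 and -0.65. *GIR2* (YDR152W), a partner of the translation regulator Gcn1, had -1.78, -3.19 and -0.30, and *HFI1* (YPL254W), of the SAGA complex, -1.34, -1.82 and -0.24. In these genes B was the lowest array. Above 0 were *SPG3* (YDR504C) with 1.92, 3.23 and 0.37, *HPF1* (YOL155C), a wall mannoprotein, with 0.90, 2.01 and 0.59, *CBR1* (YIL043C), the cytochrome b5 reductase, with 1.37, 0.86 and 0.45, and *SHM2* (YLR058C), the cytosolic serine hydroxymethyltransferase, with 0.86, 0.95 and 0.45. Each of these 8 genes had an adjusted p of 0.612 by limma. Some genes that the study followed by qPCR or discussed had fewer values. *LSM8* (YJR022W), of the RNA decay and splicing ring, had 0.41 on B and 0.44 on C. The overlapping dubious ORF YJR023C, from which the paper assumed a change in *LSM8*, had -0.56 on C alone, on the other side of 0. The qPCR control *ACT1* (YFL039C), actin, had 1.81 on A and -0.31 on C. *NSR1*, *GPD1* and *GUT2* are not named by the study's table and were taken up only as members of the function lists. *GPD1* and *GUT2* are on the glycerol list, of which all 8 members were tested, and *NSR1* is on the processome list. Their single values are not given here. *DDR48* (YMR173W), a stress protein, had -1.83 on A and -0.54 on C, and *SRP1*, a nuclear import receptor, had -0.62 on C alone.

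**Figure D4:**
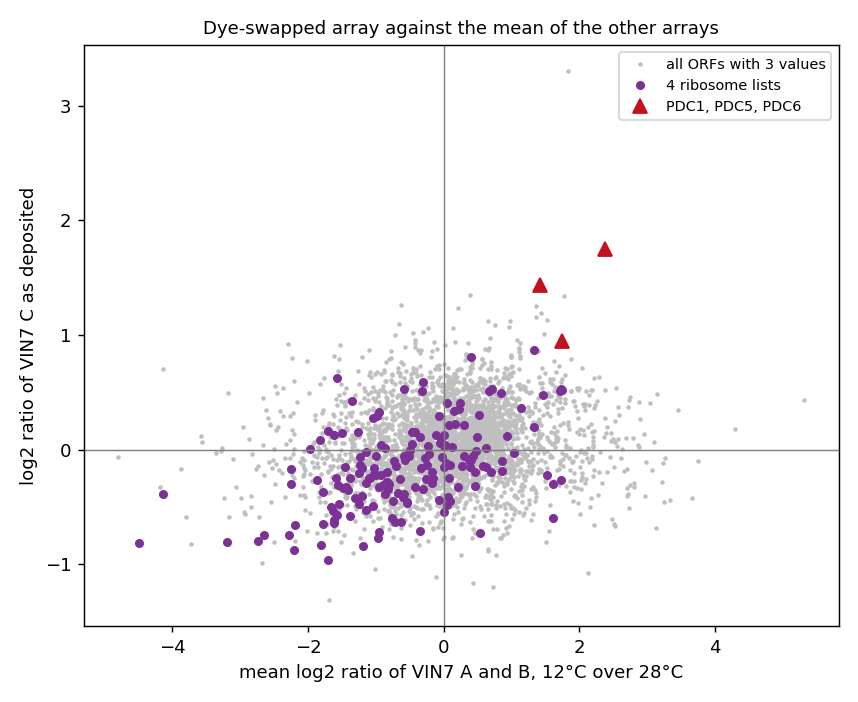
Log2 ratio on the dye-swapped VIN7 C as deposited (vertical) against the mean of VIN7 A and B (horizontal) for the 3359 ORFs with 3 values, with the 4 ribosome lists and *PDC1*, *PDC5* and *PDC6* marked. The *PDC* genes lie at the upper right, with 1.75, 1.43 and 0.95 on C, and the ribosome ORFs spread over both sides of 0.

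With C turned, other ORFs came to the front. *HKR1* (YDR420W), a mucin-like osmosensor, had 2.68 on A, 3.99 on B and -0.44 on C as deposited. *YPT7* (YML001W), the Rab protein of vacuole fusion, had 2.17, 2.86 and -0.65. In both genes the large values were on A and B, and C was small in either sign. Their means were 2.08 and 1.46 as deposited and 2.37 and 1.89 with C turned, and limma's adjusted p in the turned fit was 0.936. *GLC7* (YER133W), the catalytic subunit of protein phosphatase 1, had 1.74, 2.35 and -0.20. The order of the ORFs thus depended on the sign taken for C. Lower with C turned were YBL029W, with -2.07, -2.39 and 0.17 as deposited, and YDR094W, with -1.23, -3.11 and 0.42.

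The difference between VIN7 and W27 was tested over the 6 arrays for 4670 ORFs. By limma there were 0 ORFs at a false discovery rate of 5%, higher or lower (0%, smallest adjusted p = 0.893), and 86 (1.84%) were higher and 61 (1.31%) lower in VIN7 at the unadjusted threshold. With C turned these were 35 (0.749%) and 29 (0.621%). Over the ORFs of the 4 ribosome lists, array A of VIN7 had a median of -0.44, B -0.70 and C -0.25, against 1.54 on array A of W27, -0.41 on its B and -0.35 on its C. With C as deposited, W27 A was thus the single array on which these lists together lay above 0. With C turned, the median of VIN7 C would lie above 0 too. W27 A also ran against the others over all ORFs. Its r was -0.14 and -0.19 with W27 B and C, whereas W27 B and C had r = 0.79. With VIN7 A, B and C as deposited it was -0.24, -0.10 and -0.27. VIN7 A had r = 0.66 and 0.61 with W27 B and C, against 0.36 and 0.37 with VIN7 B and C. VIN7 B and C had r = 0.06. VIN7 A thus lay closer to arrays of the other strain than to those of its own. *PDC1* had a mean of 2.17 in VIN7 and 2.79 in W27 (difference -0.62, standard error 0.52), which overlapped. Glycolytic genes had smaller values in VIN7. *TDH3* (YGR192C) had 0.80, 0.31 and 0.26 in VIN7, against 3.52, 2.28 and 2.73 in W27 (difference -2.39, standard error 0.54). *ENO2* (YHR174W) had 0.81, 0.42 and 0.12 in VIN7, against 3.26, 2.44 and 2.81 in W27 (-2.39, standard error 0.51), and *TDH2* (YJR009C) 0.88, 0.27 and 0.74, against 2.51, 1.94 and 2.65 (-1.74, standard error 0.50). None of the VIN7 arrays reached a W27 array for these genes, but the adjusted p was 0.893 for each by limma. With the arrays scaled to one spread the difference was -0.89 for *TDH2*. Over all alternatives the difference nearest to 0 was -1.64 for *TDH3* and -1.75 for *ENO2*. *TDH2* and *TDH3* encode the same enzyme and may not be separate measurements on these spots, which was not tested. Turning C gave -2.56 for *TDH3*, -2.46 for *ENO2* and -2.23 for *TDH2*. The glycolysis list had 10 of 17 ORFs lower in VIN7 and 0 higher at the unadjusted threshold, against 1.31% of all ORFs tested.

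*GSY2*, *MMR1* and *MRPL8* had larger values in VIN7, although none of them reached an unadjusted p under 0.05. *GSY2* had 1.12, 1.61 and 1.16 in VIN7, against -2.24, 0.63 and 0.09 in W27, and *MMR1* 1.34, 2.21 and 1.34 in VIN7, against -3.27, 0.74 and 0.91 in W27. *MRPL8* had 1.04, 0.90 and 1.07 in VIN7, against -3.01, 0.34 and -0.03 in W27. In all of them the strains did not overlap with C as deposited, W27 A was far below the other W27 arrays, and the adjusted p was 0.893 by limma. The differences were 1.80 for *GSY2*, 2.18 for *MMR1* and 1.90 for *MRPL8*, and 0.93, 0.81 and 0.85 without W27 A. With C turned they were 1.03, 1.28 and 1.19. VIN7 C then lay below W27 B and C for each of these genes, so the strains overlapped.

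**Figure D5:**
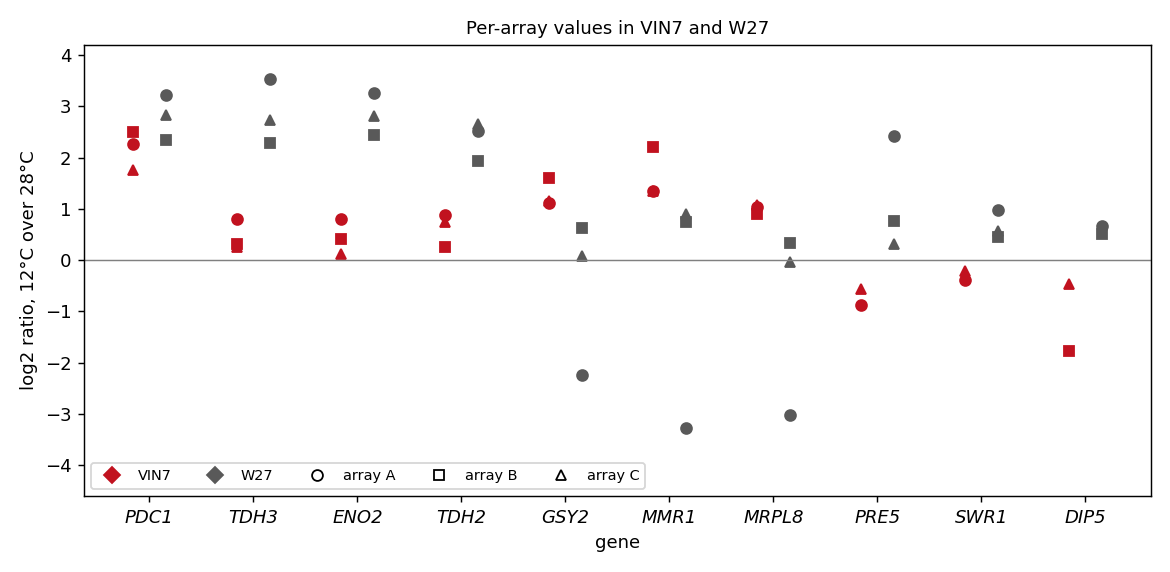
Log2 ratio (12°C over 28°C) of 10 genes on each VIN7 array (left of each pair) and each W27 array (right), with circles for array A, squares for B and triangles for C as deposited. *TDH3* lies between 0.26 and 0.80 in VIN7, against 2.28 to 3.52 in W27, and the W27 A values of *GSY2*, *MMR1* and *MRPL8* lie below -2.

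Position in the genome was read from the systematic names, and the counts here are with C as deposited. The right arm of chromosome XII was singled out because the leading ORFs lie there. Of the 15 ORFs with the smallest p-values that were higher at 12°C, 8 lie on the right arm of chromosome XII by their systematic names, and 26 of the 136 one-sided 2-fold higher ORFs (19.1%) lie there, against 292 of the 3359 with 3 values (8.69%). Of the 66 on the lower side, 6 (9.09%) lie on that arm. *PDC1*, *PDC5*, *IDP2*, *MMR1*, *GSY2*, *UTP13* and *PDR8* are among the genes of this arm. Over the whole of chromosome XII, 36 of 446 ORFs (8.07%) were higher at the unadjusted threshold, against 3.24% of all ORFs tested, and 14 (3.14%) were lower, against 2.24%. Neighbouring ORFs had correlated values, with r = 0.16 over 3540 pairs on A, 0.06 over 2427 on B and 0.12 over 4874 on C. The part of array layout or print tips in this was not tested, because spot positions were not used here.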

How the data were processed

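Two-colour spotted arrays of *S. cerevisiae* ORFs were hybridised with amplified RNA of VIN7 or W27 grown at 12°C and at 28°C, in 3 arrays per strain. The deposited values are log2 ratios of 12°C over 28°C, which the authors made with GenePix and Acuity by background correction, normalization, a filter on flagged spots and print-tip correction. How the arrays were centred could not be settled. The number of arrays limits the precision, and 0 columns of sample values were left unused.

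Each ORF with at least 2 VIN7 values was tested for a mean of 0 with limma 3.58.1 in R 4.3.3 (two-sided, Benjamini-Hochberg over all ORFs tested). The strains were compared in the same way over 6 arrays. Both tests were tried on simulated data, where recovery was required only with an even spread on every array. The spreads of these arrays differ, so that check does not show how many changes are recovered here. The alternatives were the sign of VIN7 C, centring, scaling, complete ORFs, left-out arrays, array weights, a dye term, SAM (also with C turned, added after the data were seen), the mean in place of the median and a replicate block.

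The genes named were those of the study's VIN7 list, per direction the 15 ORFs with the smallest p among one-sided 2-fold ORFs and 5 more with C turned, up to 4 members of each list, and genes discussed in the study. Of the ranked ORFs and list members that the study's table does not name, only some were printed, by systematic name. Outside this rule, *CBR1*, *EFT2*, *ENO2*, *ENT3*, *ENV10*, *GIR2*, *GLC7*, *HFI1*, *HPF1*, *RPL20a*, *RPL24b*, *RPS27b*, *SFM1*, *SHM2*, *SPG3*, *VPS55*, *BUD28*, *PRE5*, *SWR1* and *YHR112C* were chosen after their values were seen. A list was given a direction where its medians had one sign on all 3 arrays and its median was at least 0.2 in size. For this C was taken as deposited. With C turned, no list that was given a direction kept one sign on all 3 arrays. Members and lists were chosen with earlier results of these data known. Gene names came from the study's table, and list membership from general knowledge of the yeast catalogue without an annotation table.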

Additional observations from a re-analysis of the deposited data

Results flagged for a closer look

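For 5 genes, chosen among those the study's table names after their values were seen, every VIN7 array with a value lay below 0 and every W27 array with a value above 0. This sign pattern was met by 113 of 4670 ORFs (2.42%), and the opposite pattern by 143 (3.06%). By limma the difference did not pass for any of the 5 (adjusted p = 0.893 for each). *PRE5*, a subunit of the proteasome core, had -0.86 and -0.56 in VIN7, against 2.41, 0.77 and 0.32 in W27 (difference -1.88). *DIP5*, a permease for acidic amino acids, had -1.77 and -0.46 in VIN7, against 0.66 and 0.51 in W27 (-1.70). *SWR1*, the ATPase of a chromatin remodeller, had -0.38 and -0.22 in VIN7, against 0.98, 0.46 and 0.56 in W27 (-0.97). *YHR112C* had -0.56 and -0.28 in VIN7, against 1.24, 0.45 and 0.67 in W27 (-1.21), and *BUD28* -0.59, -0.88 and -0.23 in VIN7, against 1.06 and 0.05 in W27 (-1.12). With C turned each gene has a VIN7 value above 0 on C, so the sign pattern ends for all 5. The differences were then -1.32 for *PRE5*, -1.24 for *DIP5*, -0.75 for *SWR1*, -0.92 for *YHR112C* and -0.96 for *BUD28*.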

How the results depend on the processing

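Under each limma alternative run, 0 VIN7 ORFs passed a false discovery rate of 5%, whereas SAM called 11 higher, and 0 with C turned. The 165 higher and 114 lower of 5100 ORFs at the unadjusted threshold became 88 and 16 with C turned. They became 314 and 416 with arrays scaled and 663 and 633 with array weights, also of 5100. Some alternatives tested fewer ORFs. A dye term gave 57 and 10 of 3359, and complete ORFs alone gave 146 and 75 of 3359. Leaving out 1 array gave 7 and 2 of 3783 without A, 180 and 290 of 4672 without B, and 184 and 65 of 3363 without C. The 136 and 66 ORFs of 2-fold became 71 and 8 with C turned, and 153 were lower by the mean in place of the median. With 1 array left out the same rule asks for only 2 values on one side of 0, so its counts are not on a par with the 136 and 66 of 3359 ORFs. They were 262 and 286 of 3783 without A, 87 and 130 of 4672 without B, and 411 and 373 of 3363 without C. With C turned the means of *LSM8*, *GPI15* and *LPP1* changed sign to -0.011, 0.0165 and 0.0545. For VIN7 minus W27, the 86 higher and 61 lower ORFs became 35 and 29 with C turned and 160 and 140 with arrays scaled. Leaving out 1 array, which left 3255 to 4427 ORFs to test against 4670, gave 29 to 225 and 32 to 116. The highest counts (225 and 116) were without W27 A. Scaling turned the *PDC1* difference to 0.69. The replicate block gave 28 higher and 63 lower of 4136 ORFs and 0 calls at the false discovery rate of 5%. Same-lettered arrays of the strains did not deviate together (r = -0.11 for A, 0.11 for B and -0.26 for C over 2674 ORFs), so the letters were not taken as pairs. Centring on chromosome medians, chosen after the data were seen, gave 182 higher and 129 lower and 0 calls. The cause of these shifts was not tested.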
